A study of Mus musculus with 12 samples.

Results

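Ephrins are cell-surface ligands of the Eph receptors, the largest family of receptor tyrosine kinases. The A-type ephrins are held in the membrane by a glycolipid anchor and the B-type ephrins cross it. A ligand on one cell and a receptor on its neighbour signal into both cells at contact, and in the developing cortex this contact signalling is known for guiding axons, ordering thalamic inputs and placing migrating neurons. All 8 mouse ephrin genes were taken by symbol from the gene lines of the count tables, Efna1 to Efna5 and Efnb1 to Efnb3, whatever their values, so that the set holds 8 of 51912 annotated genes.

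The libraries came from the cortex of newborn mice (P0), 4 to a group, and were made by ClickSeq, which joins adapters to cDNA by a click reaction, from total RNA depleted of rRNA. In dKO-N, H3f3a and H3f3b were conditionally knocked out together by Neurod6-Cre, a driver known to act in postmitotic excitatory neurons. In dKO-E the same pair was knocked out by Emx1-Cre, a driver known to act from cortical progenitors onward, so that driver and time of deletion cannot be told apart. The labels give the third group only as control and name no allele or Cre for it. H3f3a and H3f3b encode the same protein, the histone variant H3.3, and each driver spares the cortical cells outside its own lineage. The labels do not tie a library to its own animal, and p-values here describe only the spread among libraries.

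Between 722080 and 3502017 counts fell in genes per library. The deleted genes did not follow every label. H3f3a stood at 36.7, 30.8, 22.1 and 37.8 CPM (counts scaled to a fixed library total) in dKO-N libraries 1 to 4, at 30.0, 28.4, 25.8 and 22.9 CPM in dKO-E libraries 1 to 4, and at 17.7, 117, 16.4 and 121 CPM in libraries labelled control 1 to 4. Libraries labelled control 1 and 3 were thus below every knockout library, and the main results are also given without them. H3f3b averaged 122 ± 16.0 CPM in dKO-N, 173 ± 6.10 CPM in dKO-E and 106 ± 31.1 CPM in libraries labelled control (SD, n = 4 each). In libraries labelled control 1 to 4 it stood at 121, 76.7, 143 and 84.2 CPM. By edgeR's quasi-likelihood test H3f3b was higher in dKO-E than in the control-labelled group (log2 fold change 0.69, adjusted p = 0.000707). It was also higher in dKO-E than in dKO-N (0.53, adjusted p = 0.0303). Counts over the whole gene do not single out the deleted part. Y-linked counts were 1035 and 274 in dKO-E libraries 3 and 4 and at most 3 in each of the other 10 libraries. The tissue carried its defining markers (Neurod6, Slc17a7 and others), while Neurod1 and Tubb3, which each lie inside another annotated gene, were at 0 in every library.

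The ephrin genes were spread over 6 chromosomes, with Efna1, Efna3 and Efna4 as near neighbours on chromosome 3. Efna5 (ENSMUSG00000048915.12) spans chr17:62604184-62881317 on the minus strand of mm10, a gene of 277 kb with 4032 exonic bases. Efnb2 (ENSMUSG00000001300.16) spans chr8:8617434-8661242 on the minus strand, 43.8 kb with 6855 exonic bases. Both are protein coding. Because these were the only ephrin genes that passed the test, their promoter windows are shown, from 250 bases before to 50 bases after the RefSeq start (build GRCm38.p6), read on the strand of the gene, with the GC box GGGCGG or its reverse complement CCGCCC in capitals.
Efna5, chr17:62881268-62881567, minus strand: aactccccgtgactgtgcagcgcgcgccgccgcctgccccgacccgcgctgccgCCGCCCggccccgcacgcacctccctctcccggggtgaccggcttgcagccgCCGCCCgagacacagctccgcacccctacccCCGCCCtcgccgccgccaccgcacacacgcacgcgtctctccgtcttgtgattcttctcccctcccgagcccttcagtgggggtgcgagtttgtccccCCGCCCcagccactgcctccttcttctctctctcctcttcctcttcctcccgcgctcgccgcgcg
Efnb2, chr8:8661193-8661492, minus strand: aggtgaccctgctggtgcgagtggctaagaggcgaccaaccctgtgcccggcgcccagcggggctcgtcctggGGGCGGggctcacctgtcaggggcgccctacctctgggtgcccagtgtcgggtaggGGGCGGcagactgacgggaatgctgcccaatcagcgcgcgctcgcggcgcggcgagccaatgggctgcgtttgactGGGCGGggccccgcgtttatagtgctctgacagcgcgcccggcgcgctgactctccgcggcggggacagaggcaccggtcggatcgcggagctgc
The Efna5 window is 73.3% G and C with 38 CpG dinucleotides, more than in 95.0% of all 32851 RefSeq windows of this length. The Efnb2 window is 72.3% G and C with 35 CpG, more than in 93.0% of them, against a median of 7 CpG and 52.7% G and C over all windows. Searched on both strands, GGGCGG occurred 4 times in the Efna5 window and 3 times in the Efnb2 window, and 35.7% of all windows hold it. The E-box CANNTG, the letters bound by bHLH factors, was not in the Efna5 window and occurred 1 time in the Efnb2 window (72.3% of all windows hold it). CCAAT occurred 2 times and TATAAA 1 time in the Efnb2 window and neither was in the Efna5 window; 37.4% and 13.6% of all windows hold them. No matches of different motifs shared bases. Windows were at hand for 7 of the 8 ephrin genes, all but Efnb3. Some ephrins that were not called had like windows. Efna2 had 31 CpG with 74.7% G and C, and the Efna3 windows had 34 and 22 CpG. GGGCGG occurred 2 times in the Efna2 window and 3 times in each Efna3 window. Efna1 (20 CpG in each window), Efnb1 (14) and Efna4 (11) had fewer CpG. CANNTG was absent from the windows of Efna1, Efna2, Efna4 and Efnb1. These traits were thus not particular to the called genes.

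The ephrin genes differed widely in level. Per exonic kb, Efna5 was the most abundant in the libraries labelled control at 97.2 ± 10.6 CPM per exonic kb (SD, n = 4), followed by Efnb2 at 40.4 ± 3.86. Efnb3 (9.66 ± 1.08), Efnb1 (8.05 ± 1.39), Efna2 (5.57 ± 1.88), Efna3 (4.15 ± 1.09), Efna4 (2.41 ± 1.08) and Efna1 (0.592 ± 0.559) came after them on that scale. In that order Efna5 stood clear of Efnb2 and Efnb2 clear of Efnb3, while each later neighbouring pair overlapped in the range of its 4 libraries.

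In both knockouts Efnb2 headed the order. It averaged 52.9 ± 2.71 CPM per exonic kb in dKO-N against 33.9 ± 8.63 for Efna5, without overlap, and 50.0 ± 8.16 in dKO-E against 29.5 ± 7.18 for Efna5, where the ranges overlapped through library dKO-E 1. Efnb1 and Efnb3 followed at 10.5 ± 3.51 and 8.36 ± 2.60 in dKO-N and at 9.01 ± 0.840 and 9.73 ± 1.60 in dKO-E, overlapping each other in both groups. The other 4 genes averaged below 5 CPM per exonic kb in both knockouts. Divided by the length of the whole gene the order was another: Efna5, by far the longest, averaged 0.493 ± 0.126 in dKO-N, 0.429 ± 0.105 in dKO-E and 1.41 ± 0.155 CPM per kb of gene in the libraries labelled control, below the 3 B-type ephrins in all 3 groups. Whether intronic reads were counted is not given in the sources used here, so the order between genes depends on which length applies.

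**Figure D1:**
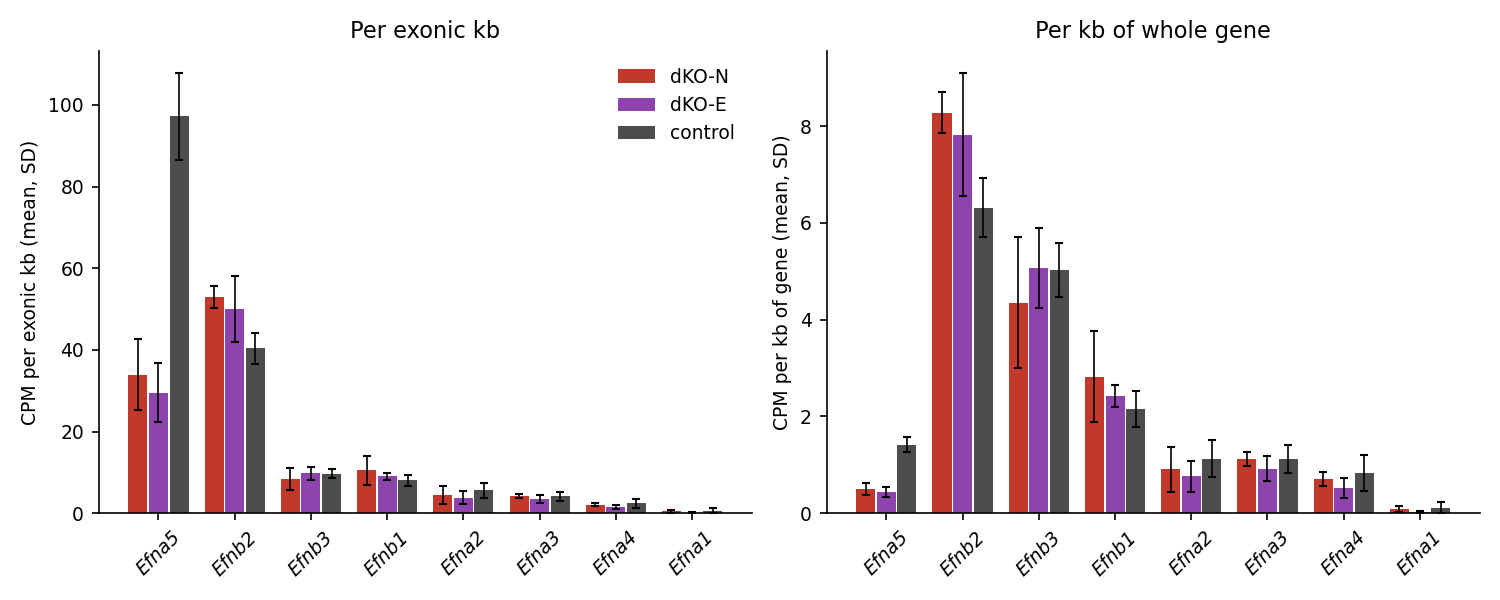
Mean level of each ephrin gene in dKO-N, dKO-E and the libraries labelled control, as CPM per exonic kb (left) and CPM per kb of the whole gene (right); bars are means and error bars SD of 4 libraries. On the left Efna5 is the tallest bar of the control-labelled group and stands below Efnb2 in both knockouts; on the right Efnb2 leads in all 3 groups.

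Differences between groups were tested with edgeR's quasi-likelihood test on the counts, in 1 fit of the 12 libraries, with Benjamini-Hochberg adjustment over the 11076 genes that passed the filter on low counts and a threshold of 0.05. Of the 8 ephrin genes, 6 passed the filter, and Efna1 and Efna4 did not. In dKO-N, 2 of these 6 differed from the libraries labelled control, Efna5 lower and Efnb2 higher, beside 11.3% of all tested genes called in either direction (6.29% lower, 5.04% higher). The same pair differed in the same directions in dKO-E, beside 20.2% of all tested genes (10.1% lower, 10.1% higher). The dKO-N and dKO-E comparisons share their control libraries and so do not test each other. The median log2 fold change of the 6 tested ephrins was -0.12 in dKO-N and -0.12 in dKO-E, against 0.014 and 0.0068 over all tested genes.

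Efna5, an A-type ligand known for its gradients in the cortex and its repulsion of growing axons, had the largest difference of the 6 tested ephrins. It measured 103, 120, 139 and 184 CPM in dKO-N libraries 1 to 4, 160, 116, 93.0 and 107 CPM in dKO-E libraries 1 to 4, and 430, 420, 384 and 335 CPM in libraries labelled control 1 to 4. Every knockout library lay below every library labelled control. Of all tested genes, 13.0% had groups without overlap in dKO-N and 25.5% in dKO-E. Relative to the control-labelled group Efna5 fell by 1.46 on the log2 scale in dKO-N (SE 0.175, adjusted p = 3.73e-05), to 36.4% of its level there. In dKO-E it fell by 1.74 (SE 0.170, adjusted p = 2.57e-06), to 30.0%. By size this was rank 73 of the 697 genes that fell in dKO-N, whose median size was 0.66, and rank 46 of the 1118 that fell in dKO-E, whose median size was 0.58.

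The raw counts behind these values were 76, 129, 101 and 613 in dKO-N libraries 1 to 4, 245, 286, 238 and 191 in dKO-E libraries, and 1217, 788, 889 and 648 in libraries labelled control. The fall held without libraries labelled control 1 and 3, at -1.41 in dKO-N (adjusted p = 0.00146), and at -1.68 in the dKO-E libraries (adjusted p = 0.000184). Library dKO-N 4, the deepest, had the highest Efna5 of its group, and without it the dKO-N value was -1.70 (adjusted p = 4.69e-07). Library dKO-E 1 had the highest Efna5 of the dKO-E group, and without it the dKO-E value was -1.90 (adjusted p = 1.33e-10).

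Between the groups, though not within dKO-E, markers of cortical excitatory neurons were lower where Efna5 was lower. The summed level of 12 such markers was 2335 to 3157 CPM in dKO-N libraries, 1750 to 2129 CPM in dKO-E libraries and 3397 to 3847 CPM in libraries labelled control, with Neurod1 and Tubb3 at 0 throughout. Of the 10 tested, 2 were lower and 1 higher in dKO-N, and 5 were lower and 1 higher in dKO-E, beside 6.29% of all tested genes lower and 5.04% higher in dKO-N and 10.1% each way in dKO-E. Of the 2 that were lower in dKO-N, Slc17a7 was lost without dKO-N 4 (adjusted p = 0.185) and without libraries labelled control 1 and 3 (0.0700). Neurod6 was at 41.4% of its control-labelled level in dKO-N (adjusted p = 1.21e-10) and at 50.7% in dKO-E (adjusted p = 2.14e-09). Neurod6 is also the gene named in the dKO-N driver, and the labels name no Cre for the control-labelled group. Whether the driver itself lowers Neurod6 counts in dKO-N was not tested. Striatal markers, 8 in number, summed to 272 to 501 CPM in dKO-N, 298 to 324 CPM in dKO-E and 510 to 552 CPM in libraries labelled control. In libraries labelled control 1 to 4 the excitatory sum was 3847, 3648, 3483 and 3397 CPM, in the order of Efna5. In dKO-N libraries 1 to 4 it was 2335, 2396, 2499 and 3157 CPM, again in the order of Efna5. That order was not particular to excitatory markers. The sum of 12 radial glia markers followed it too in dKO-N libraries 1 to 4, at 521, 526, 538 and 579 CPM. In libraries labelled control 1 to 4 that sum was 401, 416, 376 and 344 CPM, not in the order of Efna5. Between the groups the radial glia sum was higher where Efna5 was lower. Library dKO-N 4 had the highest sum of its group on both lists, 3157 and 501 CPM, as it had the highest Efna5. Library dKO-E 1, with the highest Efna5 of its group, had the lowest excitatory sum of any library, 1750 CPM, and a striatal sum of 309 CPM inside the range of its group. Their part in the fall of Efna5 was not tested, and in bulk RNA fewer cells of a type and less RNA per cell cannot be told apart.

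**Figure D2:**
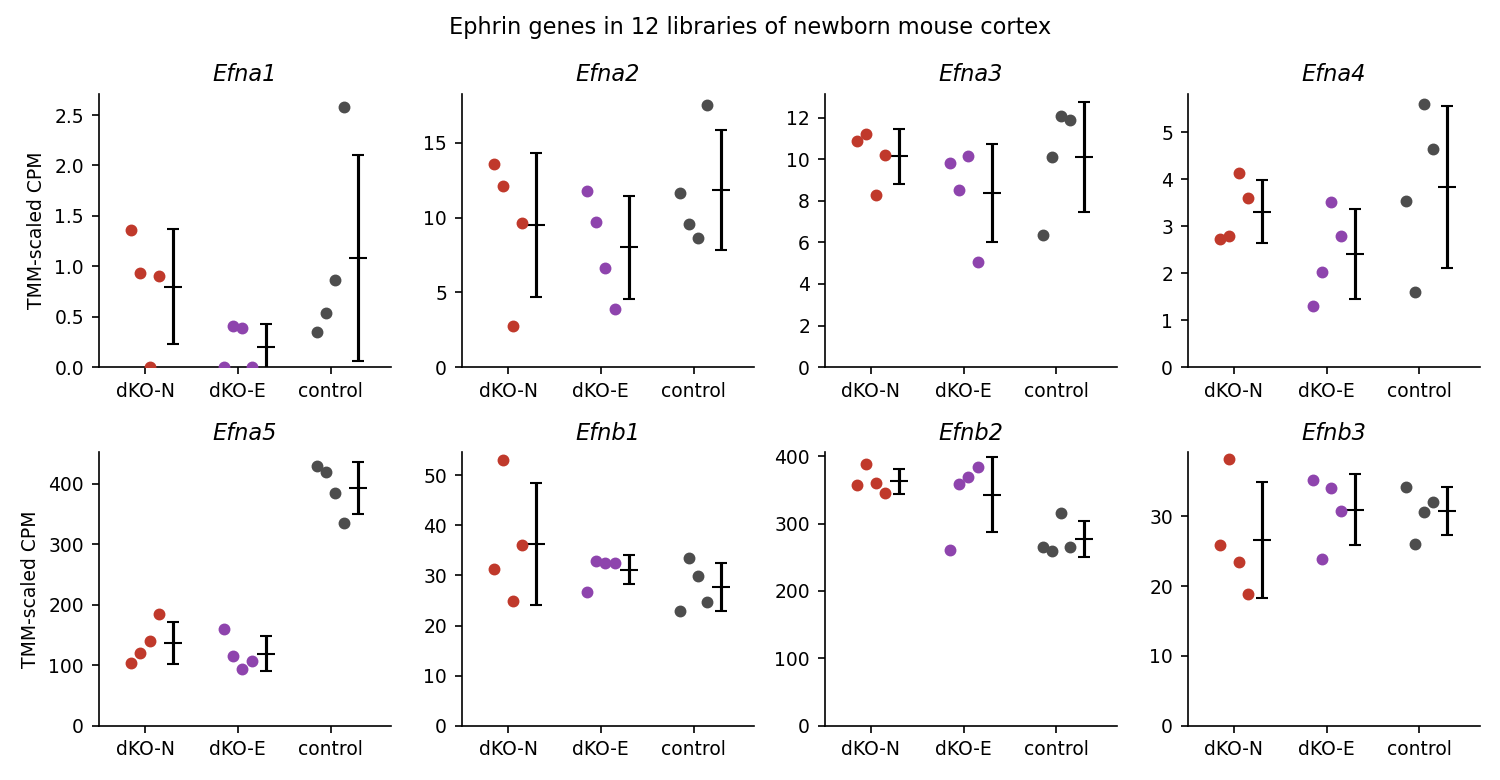
TMM-scaled CPM of each ephrin gene (vertical axis of each panel, from 0) in dKO-N, dKO-E and the libraries labelled control; points are the 4 libraries of a group and the bar beside them is the mean with its SD (cut off at 0 for Efna1 in dKO-E). Efna5 lies between 93.0 and 184 CPM in the knockout libraries and between 335 and 430 CPM in those labelled control; for Efnb2 library dKO-E 1, at 261 CPM, is the only knockout library inside the control-labelled range.

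Efnb2, a B-type ligand known from neural progenitors, neurons and the endothelium of arteries, moved the other way and by less. Its level was 358, 389, 360 and 345 CPM in dKO-N libraries 1 to 4, 261, 359, 368 and 384 CPM in dKO-E libraries 1 to 4, and 266, 259, 316 and 266 CPM in libraries labelled control 1 to 4. All dKO-N libraries lay above all those labelled control, whereas library dKO-E 1 lay within the control-labelled range. The log2 fold change was 0.39 in dKO-N (SE 0.103, adjusted p = 0.00876) and 0.31 in dKO-E (SE 0.0998, adjusted p = 0.0229). These were small rises for these libraries, at rank 494 of 558 by size among the genes that rose in dKO-N, whose median size was 0.70, and rank 1056 of 1120 in dKO-E, whose median size was 0.66.

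The rise of Efnb2 in dKO-N passed the threshold under all 22 alternative settings, with log2 fold changes of 0.34 to 0.46 and adjusted p up to 0.0483. In dKO-E the call was lost under 9 of the 22. DESeq2 gave an adjusted p of 0.0518, and leaving out library control 1, control 2, control 4, dKO-E 2, dKO-E 3 or dKO-E 4 gave 0.0736, 0.0870, 0.0757, 0.0766, 0.0885 and 0.110 in that order. Thinning every library at random to the total of the shallowest gave 0.124. With sex, read from the Y-linked counts, as a covariate the dKO-E log2 fold change of Efnb2 was 0.17 (adjusted p = 0.420), a fit in which only libraries dKO-E 1 and 2 carry the group difference; without library dKO-E 1 it was 0.42 (adjusted p = 0.00127). Without libraries labelled control 1 and 3 it was 0.46 in dKO-N (adjusted p = 0.0257), and 0.39 in the dKO-E libraries (adjusted p = 0.0475).

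Between the groups, though not within each group, markers of progenitors were higher where Efnb2 was higher. The summed level of 12 radial glia markers was 521 to 579 CPM in dKO-N, 461 to 579 CPM in dKO-E and 344 to 416 CPM in libraries labelled control, with Sox2, which lies inside another annotated gene, at 0 throughout. That of 8 intermediate progenitor markers was 109 to 122 CPM in dKO-N, 80.0 to 104 CPM in dKO-E and 45.6 to 68.2 CPM in libraries labelled control, with no marker at 0 in a whole group. Of 8 radial glia markers tested, 4 were higher in dKO-N and 4 in dKO-E; of 6 intermediate progenitor markers tested, 3 were higher in dKO-N and 3 in dKO-E, beside 5.04% of all tested genes in dKO-N and 10.1% in dKO-E. Insm1 was 2.96 times its control-labelled level in dKO-N (adjusted p = 2.85e-06) and 2.23 times in dKO-E (adjusted p = 0.000106). The sum of 13 endothelial and mural markers, none at 0 in a whole group, did not rise with Efnb2, at 113 to 143 CPM in dKO-N, 106 to 153 CPM in dKO-E and 146 to 151 CPM in libraries labelled control. Library dKO-E 1, the lowest of its group in Efnb2, had the highest sum of 8 meningeal markers of any library, 64.7 CPM against 4.08 to 21.9 CPM elsewhere, and the highest radial glia sum of its group, 579 CPM against 461 to 496 CPM. Library dKO-N 4, the lowest of its group in Efnb2 at 345 CPM, likewise had the highest radial glia sum of its group, 579 CPM against 521 to 538 CPM. The part of these cells in the difference of Efnb2 was not tested.

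The other B-type ephrins did not pass the test. Efnb1, an X-linked gene and another ligand of progenitors and boundaries, stood at 31.3, 53.2, 24.8 and 36.0 CPM in dKO-N, at 26.8, 32.8, 32.4 and 32.4 CPM in dKO-E and at 23.0, 33.5, 29.8 and 24.8 CPM in libraries labelled control. The groups overlapped, and library dKO-N 2 stood highest. Its log2 fold change was 0.43 in dKO-N (95% interval 0.017 to 0.85, adjusted p = 0.138) and 0.19 in dKO-E (-0.21 to 0.58, adjusted p = 0.499). Efnb3, known as a midline cue that stops corticospinal axons from crossing back, stood at 25.8, 38.2, 23.4 and 18.9 CPM in dKO-N, at 35.3, 23.9, 34.0 and 30.8 CPM in dKO-E and at 34.3, 26.1, 30.7 and 32.0 CPM in libraries labelled control. Here too the groups overlapped. Its log2 fold change was -0.30 in dKO-N (-0.75 to 0.15, adjusted p = 0.392) and -0.01 in dKO-E (-0.40 to 0.38, adjusted p = 0.977).

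The remaining A-type ephrins were low. Efna2, an A-type ligand known from the midbrain map of retinal axons, stood at 13.6, 12.1, 2.76 and 9.61 CPM in dKO-N, at 11.8, 9.72, 6.64 and 3.92 CPM in dKO-E and at 11.7, 9.59, 8.64 and 17.6 CPM in libraries labelled control. Efna3, a ligand known from hippocampal astrocytes, stood at 10.9, 11.2, 8.27 and 10.2 CPM in dKO-N, at 9.80, 8.51, 10.2 and 5.03 CPM in dKO-E and at 6.36, 10.1, 12.1 and 11.9 CPM in libraries labelled control. Neither gene separated the groups. The log2 fold change of Efna2 was -0.28 in dKO-N (95% interval -1.02 to 0.47, adjusted p = 0.685) and -0.57 in dKO-E (-1.27 to 0.13, adjusted p = 0.209). That of Efna3 was 0.04 in dKO-N (-0.63 to 0.71, adjusted p = 0.962) and -0.23 in dKO-E (-0.86 to 0.40, adjusted p = 0.610). These intervals all hold a fall as large as the difference seen in Efnb2. All but that of Efna2 in dKO-E also hold a rise of that size. A change of that size was thus not excluded in these genes.

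Efna4 and Efna1 were near the floor of detection. Efna4 had 2, 3, 3 and 12 counts in dKO-N libraries 1 to 4, 2, 5, 9 and 5 counts in dKO-E libraries, and 10, 3, 13 and 9 counts in libraries labelled control. Efna1 had 1, 1, 0 and 3 counts in dKO-N libraries, 0, 1, 1 and 0 counts in dKO-E libraries, and 1, 1, 2 and 5 counts in libraries labelled control. A count of 0 allows up to 3 counts, for counting error only. On plain totals of counts in genes, without TMM scaling, that is 0.857 CPM in the deepest library and 4.15 CPM in the shallowest. Fitted without the filter, neither gene passed the test in any comparison, with adjusted p of 0.338 or more. Efna4 shares 168 exonic bases with the antisense gene 4731419I09Rik, which averaged 8.79 ± 3.49 CPM in dKO-N, 9.45 ± 2.95 CPM in dKO-E and 3.14 ± 0.857 CPM in libraries labelled control (SD, n = 4 each); strand use in the counting is not given in the sources used here, so reads of the overlap cannot be told apart. Efna3 shares 344 exonic bases with the antisense gene Gm15998, which had at most 1 count in any library, and the 3 unconfirmed genes that lie inside Efnb2 had no count.

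Together these values shifted the makeup of ephrin RNA. Of the summed ephrin CPM per exonic kb, Efna5 made up 23.6% to 36.9% in dKO-N libraries, 21.6% to 37.1% in dKO-E libraries and 53.1% to 61.5% in the libraries labelled control. Efnb2 made up 40.6% to 48.2%, 35.6% to 52.3% and 22.3% to 26.7% in the same groups. The sum itself was 108 to 127 CPM per exonic kb in dKO-N, 107 to 108 in dKO-E and 156 to 173 in the libraries labelled control. The ratio of Efna5 to Efnb2 on that scale was 0.491 to 0.908 in dKO-N, 0.429 to 1.04 in dKO-E and 2.06 to 2.75 in the libraries labelled control. Library dKO-E 1 was the only knockout library in which Efna5 exceeded Efnb2. These shares rest on exonic length and restate the levels of the same 2 genes, so they were not tested.

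**Figure D3:**
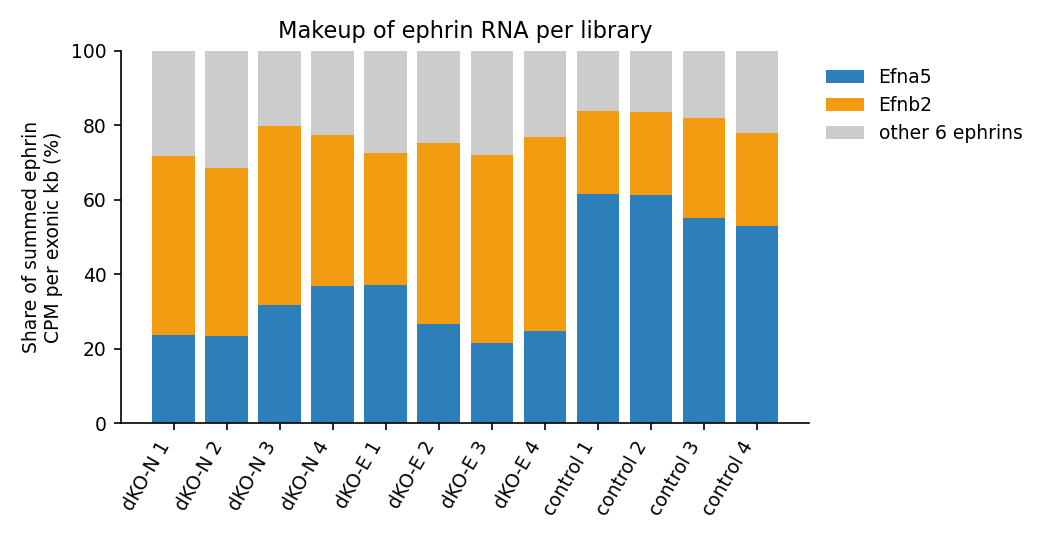
Share of Efna5, Efnb2 and the other 6 ephrin genes in the summed ephrin CPM per exonic kb (vertical axis, %), 1 stacked bar per library. Efna5 holds 53.1% or more in each library labelled control and 37.1% or less in each dKO-N and dKO-E library.

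Between the drivers, none of the 6 tested ephrins passed edgeR's test in dKO-E against dKO-N, beside 6.84% of all tested genes (3.11% higher, 3.73% lower). No ephrin had an unadjusted p under 0.05 there (0 of 6), and DESeq2 also called 0. For Efna5 the log2 difference of dKO-E minus dKO-N was -0.28 (95% interval -0.70 to 0.14, adjusted p = 0.415), and for Efnb2 it was -0.07 (-0.31 to 0.16, adjusted p = 0.721). The other 4 tested ephrins differed by -0.29 (Efna2), -0.27 (Efna3), -0.25 (Efnb1) and 0.29 (Efnb3), with adjusted p of 0.416 to 0.682. Dropping library dKO-E 1 took the Efna5 difference to -0.44 (adjusted p = 0.0810), and dropping dKO-N 4 took it to -0.04 (adjusted p = 0.932).

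The Eph receptors bind these ligands. Of 14 receptor genes, 12 were tested, and Epha1, listed at 0 in every library, and Epha2 were too low. In dKO-N 1 was higher and 1 lower, and in dKO-E 3 were lower and 0 higher (2 of 12 higher at an unadjusted p under 0.05, 0 by DESeq2). These counts, 2 and 3 of 12, stand beside 11.3% of all tested genes called in dKO-N and 20.2% in dKO-E, and lie near those shares. In dKO-E against dKO-N 1 of 12 was lower and 0 higher, near the 6.84% of all tested genes called. Over the alternative settings that number was 0 to 2. The median log2 fold change of the 12 was -0.16 in dKO-N and -0.17 in dKO-E. Epha3, Epha5 and Ephb1, the most abundant by CPM, averaged 1124 ± 72.7, 1344 ± 231 and 715 ± 171 CPM in dKO-N, 1006 ± 156, 1272 ± 150 and 657 ± 61.0 CPM in dKO-E, and 1016 ± 114, 1032 ± 144 and 607 ± 35.8 CPM in libraries labelled control (SD, n = 4 each).

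Epha7, a receptor of A-type ephrins known from cortical area and axon patterning, was lower in both knockouts. It measured 173, 225, 209 and 244 CPM in dKO-N, 128, 192, 200.5 and 239 CPM in dKO-E, and 383, 298, 332 and 306 CPM in libraries labelled control, without overlap. Its log2 fold change was -0.61 in dKO-N (SE 0.144, adjusted p = 0.00737) and -0.79 in dKO-E (SE 0.140, adjusted p = 0.000343). Without libraries labelled control 1 and 3 the dKO-N call was lost (adjusted p = 0.106).

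Epha4, which binds ephrins of both types, was lower in dKO-E against the control-labelled group and also against dKO-N. It measured 185, 177, 182 and 162 CPM in dKO-E, 212, 226, 243 and 360 CPM in dKO-N, and 272, 249.7, 212 and 270.2 CPM in libraries labelled control. The log2 fold change was -0.51 for dKO-E against the libraries labelled control (SE 0.125, adjusted p = 0.00470) and -0.60 for dKO-E against dKO-N (SE 0.129, adjusted p = 0.00585). Both calls were lost with sex as a covariate (adjusted p = 0.0575 and 0.0705) and with the libraries thinned to equal depth (0.0704 and 0.0640).

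Ephb2, a receptor of B-type ephrins at axons and synapses, was lower in dKO-E by 0.41 on the log2 scale, with a mean of 203 ± 10.6 CPM in dKO-E against 270 ± 20.4 CPM in libraries labelled control (adjusted p = 0.00161). That call was lost after thinning (adjusted p = 0.139). Epha5, a receptor of Efna5 known from thalamic and cortical axons, was higher in dKO-N, with a log2 fold change of 0.38 (SE 0.116, adjusted p = 0.0278), and its groups overlapped. Leaving out library control 2, control 4, dKO-N 2, dKO-N 3 or dKO-N 4 ended that call (adjusted p = 0.0612 to 0.129).

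**Figure D4:**
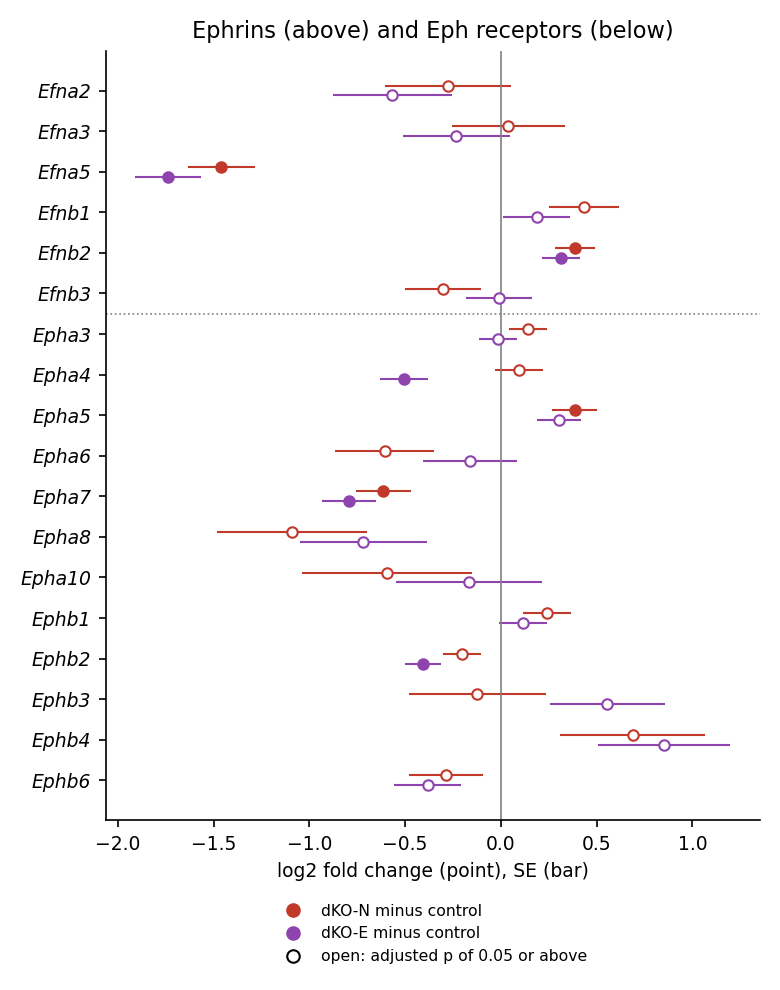
Log2 fold changes of the 6 tested ephrins (above the dotted line) and 12 tested Eph receptors (below it) in dKO-N minus control (red) and dKO-E minus control (purple); bars are SE, and open points have an adjusted p of 0.05 or above in edgeR's quasi-likelihood test. Efna5 stands at -1.46 and -1.74, the largest falls of the genes drawn, and Efnb2 at 0.39 and 0.31.

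Enzymes that cut or shed ephrins and their receptors, such as the metalloprotease Adam10, showed no call. Of 8 listed, 6 were tested and 0 passed in dKO-N, in dKO-E or in dKO-E against dKO-N by edgeR or by DESeq2. Of all tested genes, edgeR called 11.3%, 20.2% and 6.84% in these comparisons. With only 6 genes, a count of 0 lies near those shares. At an unadjusted p under 0.05, 1 was higher in dKO-N. In dKO-E 2 were higher and 1 lower at that threshold, and 1 was lower in dKO-E against dKO-N. The share of all tested genes at that unadjusted threshold is not given here.

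Among partners of reverse signalling, which runs into the ephrin-bearing cell, 15 of 16 listed genes were tested. In dKO-N 1 was higher and 2 were lower, and in dKO-E 8 were higher and 3 lower, beside 11.3% and 20.2% of all tested genes called in either direction. Over the alternative settings the number called was 2 to 3 in dKO-N and 6 to 11 in dKO-E. Ptpn13, a phosphatase known to act on B-type ephrins, averaged 78.9 ± 32.4 CPM in dKO-N, 72.6 ± 6.55 CPM in dKO-E and 29.9 ± 5.67 CPM in libraries labelled control. It rose by 1.45 on the log2 scale in dKO-N (adjusted p = 0.000168), and by 1.26 in the dKO-E libraries (adjusted p = 0.000280). Ntrk2, the BDNF receptor, fell by 0.60 in dKO-N (adjusted p = 3.88e-05), and by 0.71 in the dKO-E libraries (adjusted p = 9.00e-07). Grip2, a scaffold with PDZ domains, fell by 0.52 in dKO-N (adjusted p = 0.0177, and 0.0517 to 0.0751 on leaving out control 1, control 2, dKO-N 3 or dKO-N 4 and 0.296 after thinning), and by 0.74 in the dKO-E libraries (adjusted p = 0.000134).

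In dKO-E the transcription factor Stat3 rose by 0.98 (adjusted p = 0.000395) and Sdcbp, the PDZ protein syntenin, by 0.78 (adjusted p = 7.51e-06) relative to the libraries labelled control. The 5 other members that rose in dKO-E (Dock1, Fyn, Pick1, Src and Yes1) had log2 fold changes of 0.24 to 0.58 with adjusted p of 0.0156 to 0.0360, and DESeq2 called 5 of the 8. Against dKO-N, 2 of the 15 tested members were higher in dKO-E and 1 lower, beside 6.84% of all tested genes called in either direction. Over the alternative settings the number called was 0 to 3. Stat3 and Sdcbp were higher by 0.73 (adjusted p = 0.0365) and 0.53 (adjusted p = 0.0114) and Nck2, an adaptor, lower by 0.46 (adjusted p = 0.00420). Each of these 3 was lost without at least 1 library, Nck2 without dKO-N 4 (adjusted p = 0.0624), Sdcbp without dKO-N 4 or dKO-E 3 (0.0638 and 0.0559) and Stat3 without dKO-N 2, dKO-N 3, dKO-N 4, dKO-E 1 or dKO-E 2 (0.0541 to 0.168). After thinning, Nck2 and Stat3 were also lost (0.0519 and 0.164), as was Sdcbp with sex as a covariate (0.158). The Stat3 call was lost under 10 of 22 alternatives in all, among them DESeq2 (0.0785), only the groups compared (0.0621), the replicate block (0.0605) and leaving out both dKO-N 4 and dKO-E 1 (0.404).

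Forward signalling runs into the receptor-bearing cell, and all 24 listed effectors were tested. In dKO-N 1 was higher and 1 lower, and in dKO-E 3 were higher and 4 lower, beside 11.3% and 20.2% of all tested genes called in either direction. Ptpro, a phosphatase known to act on Eph receptors, averaged 331 ± 16.3 CPM in dKO-N, 296.5 ± 28.0 CPM in dKO-E and 572 ± 38.0 CPM in libraries labelled control, without overlap. It fell by 0.79 on the log2 scale in dKO-N (adjusted p = 2.98e-08), and by 0.94 in the dKO-E libraries (adjusted p = 1.75e-10). Chn2, a Rac-GAP of the chimaerin family, was higher in dKO-N by 0.34 (adjusted p = 0.0110), a call lost without control 2 (0.0533), dKO-N 4 (0.0503) or libraries labelled control 1 and 3 (0.112). In dKO-E the guanine nucleotide exchange factors Vav3 and Itsn1 fell by 0.60 (adjusted p = 0.000339) and 0.45 (adjusted p = 0.000249), and the adaptor Anks1b fell by 0.40 (adjusted p = 0.000753). Between the drivers 1 of the 24 was higher in dKO-E and 1 lower, beside 6.84% of all tested genes called in either direction. Over the alternative settings the number called was 0 to 5. Vav3 was lower in dKO-E by 0.57 (adjusted p = 0.00522, 0.0915 without dKO-N 4 and 0.211 after thinning), and the GTPase Rac1 was higher by 0.40 (adjusted p = 0.0401). The Rac1 call was lost without control 2, control 3, dKO-N 1, dKO-N 4, dKO-E 2, dKO-E 3 or dKO-E 4 (adjusted p = 0.0505 to 0.288) and under 7 other alternatives.

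The nearest and second nearest protein-coding genes of the ephrins that moved were read after those calls were known. Fbxl17, 176 kb from Efna5, was lower by 0.33 on the log2 scale in dKO-N (adjusted p = 0.00959), and by 0.47 in the dKO-E libraries (adjusted p = 8.41e-05), and the dKO-N call was lost without libraries labelled control 1 and 3 (adjusted p = 0.0691). Fer, 982 kb from Efna5 on the same side, was at -0.16 in dKO-N (adjusted p = 0.491) and fell by 0.47 in dKO-E (adjusted p = 0.00593, and 0.127 without libraries labelled control 1 and 3). Next to Efnb2, Arglu1 was at 0.11 in dKO-N (adjusted p = 0.679), and at 0.33 in the dKO-E libraries (adjusted p = 0.0443, lost under 12 of 22 alternatives, among them leaving out control 1, 2 or 4, dKO-N 3 or dKO-E 2, 3 or 4), and Fam155a at 0.04 (adjusted p = 0.843) and 0.07 (adjusted p = 0.604). Each of these differences was smaller in size than that of Efna5, and for Efnb2 only Arglu1 in dKO-E was of a like size.

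Genes whose profile over the 12 libraries was most like Efna5 were found by the root mean square difference of mean-centred log2 CPM among 9284 genes. Zfp385b (0.223), Lsamp (0.233) and Adamts20 (0.238) were nearest, against a median of 0.855 over all genes compared. Lsamp, a neuronal cell adhesion protein, averaged 2569 ± 224 CPM in dKO-N, 2293 ± 249 CPM in dKO-E and 6243 ± 420 CPM in libraries labelled control. Nearest to Efnb2 were Wac (0.112), Cers6 (0.123) and Ubxn7 (0.125), against a median of 0.341. A low value here means only that levels differed between libraries by like amounts, and it carries no test.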

How the data were processed

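The measured material was cortex RNA of 12 libraries, grouped by their labelled genotype. Per the submitters' processing notes, the authors used STAR, UMI-tools and HTSeq with mm10 and deposited raw counts per gene. Tool versions, annotation, strand setting and treatment of introns were not given in the sources used here. Gene names and positions came from GENCODE M21, matched by ID for 99.6% of 51912 gene lines; promoter windows came from RefSeq.

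The 5 summary lines (no feature, 6.65% to 8.94% of a library's lines; ambiguous, 2.00% to 2.20%; aligned to several places, 2.30% to 4.16%) were left out of totals and tests. Genes were kept by filterByExpr with a minimum count of 10, which left 11076 genes holding 99.05% of counts. edgeR 4.0.16 (TMM scaling, robust quasi-likelihood fit of 3 group means, 9 residual degrees of freedom, R 4.3.3) gave log2 fold changes, with SE as the size of the fold change over the square root of F and 95% intervals from 9 degrees of freedom. CPM are TMM-scaled. Adjusted p-values are Benjamini-Hochberg over all tested genes, with a threshold of 0.05, and the common biological coefficient of variation was 10.62%. Libraries of 1 group differed beyond sampling noise (chi-square over its degrees of freedom 1.56 to 5.45 in 18 pairs), so each counted as 1 replicate. The fitting script was tested on simulated data.

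Alternatives were DESeq2 1.42.0, RLE size factors, library totals, no filter, only the groups compared, the replicate number as a block, sex as a covariate, thinning to the shallowest library, leaving out each library, and leaving out libraries labelled control 1 and 3. Leaving out dKO-N 4 and dKO-E 1 together was added after seeing the data. All 8 ephrins were named whatever their values, with up to 4 called members of each pathway list and up to 2 of each marker list by size of change, and for each called ephrin the 3 genes nearest in profile (average log2 CPM of at least 3). The members and lists were chosen with earlier results of these data known.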

Additional observations from a re-analysis of the deposited data

Results flagged for a closer look

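Over the 24 sets of 4 libraries checked (8 ephrins in 3 groups), 2 held a library far from the other 3, and chance marks about 1 in 20 such sets. Efnb1 in dKO-E was 26.8 CPM in library dKO-E 1, below 32.4 to 32.8 CPM in the other 3. Efnb2 in the libraries labelled control was 316 CPM in control 3, above 259 to 266 CPM in the other 3, and without control 3 its log2 fold change was larger in dKO-E, at 0.38 (adjusted p = 0.0122).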

How the results depend on the processing

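Under the 22 alternatives, each ephrin that was called kept its direction. The number of ephrins called stayed at 2 in dKO-N and at 0 in dKO-E against dKO-N. In dKO-E it was 1 with DESeq2, 1 after thinning to the shallowest library, 1 with sex as a covariate and 1 to 2 on leaving out each library, and Efnb2 was the gene lost each time. Efna5 ranged over -1.70 to -1.36 in dKO-N and -1.90 to -1.52 in dKO-E. The log2 difference changed sign in uncalled genes only. Efna3 in dKO-N was -0.16 to 0.15 on leaving out each library, lowest without control 1, and -0.11 without control 1 and 3. Efnb3 in dKO-E was 0.12 on library totals, -0.081 to 0.11 on leaving out each library (0.05 without control 1 and 0.11 without dKO-E 2), 0.078 without control 1 and 3 and 0.22 after thinning. In dKO-E against dKO-N, Efnb2 was -0.13 to 0.032 on leaving out each library, highest without dKO-E 1, and 0.0015 without dKO-N 4 and dKO-E 1, Efnb3 was -0.032 without that pair, and Efna2 was 0.12 with sex as a covariate. The cause was not tested.

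The replicate numbers did not pair the libraries: deviations of same-numbered libraries correlated at -0.124 to 0.0131 (12 pairs) and of others at -0.103 to 0.227 (36 pairs). With the replicate block, 2 ephrins were called in dKO-N, 2 in dKO-E and 0 between the drivers, and 1065, 1974 and 500 genes in all, against 1255, 2238 and 758. The count over all genes fell to 756 in dKO-N and 1215 in dKO-E without control 1 and 3, to 746, 1203 and 284 after thinning, and to 1325 in dKO-E and 223 between the drivers with sex as a covariate; between the drivers it was 300 without dKO-N 4 and 287 without dKO-N 4 and dKO-E 1, and 488 with only the groups compared. Library totals moved the median of all genes to 0.14 in dKO-E and the split of its calls to 1988 higher and 701 lower, against 1120 and 1118, and in dKO-N to 760 higher and 554 lower, against 558 and 697. Depth limits Efna1 and Efna4, which stayed under the filter, and the shallowest libraries, dKO-N 1 and 3.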
